A study of Mus musculus with 4 samples.

Results

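The mitosis genes are a list of 35 genes that build, drive or check cell division, from the cyclins and CDK1 to the condensin subunits. They were chosen by symbol: each Ensembl transcript identifier was mapped to its gene symbol, and isoform FPKM were added up per symbol. All 35 are among the 33777 symbols with values in both liver libraries, and 4 of them (Cdk1, Aurkb, Birc5 and Top2a) are among the 4201 symbols with values in both embryo libraries. The other 31 were not analysed here in embryos, nor were Adar and Mavs, because the embryo values shared by both libraries span chromosomes 10 and 11 and chromosome 12 to position 11695810 (mm9).

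Total RNA was sequenced from 4 mouse libraries, 1 per group. The groups, with ages in embryonic days, were livers at E15.5 labelled Adar1-/- Mavs-/-, livers at E15.5 labelled Adar1-/- (strain label C57B6/J for both), whole E11.5 embryos labelled Adar1-/- Mavs-/- and whole E11.5 embryos labelled Adar1-/- (strain label C57B16/N for both). Loss of Adar1 is thus shared by all 4 groups, and libraries of wild-type or Mavs-/- mice were not analysed here. ADAR1 is the enzyme, made from the Adar gene, that edits adenosines to inosines in paired RNA, and MAVS is the adaptor of the RNA sensors RIG-I and MDA5, so that the comparison in each tissue asks what differs when Mavs is lost in addition to Adar1. The sources used here do not say how the alleles were made or how many animals went into a library.

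Mitosis is driven by CDK1 bound to cyclins A and B, with the Polo and Aurora kinases acting at the centrosomes, the centromeres and the midzone. The spindle checkpoint holds back the anaphase-promoting complex and its activator CDC20 until every kinetochore is attached, after which separase opens the sister chromatids, cyclin B is destroyed and the central spindle directs cytokinesis. Transcription of these genes peaks in G2 and mitosis and is held down in resting cells by the DREAM complex, which binds the cell cycle genes homology region (CHR) of their promoters, often beside CCAAT boxes bound by NF-Y. In the fetal liver, dividing cells include the maturing erythroblasts, which make up much of the organ, and hepatoblasts.

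The CHR motif, searched as TTTGAA on either strand, and the CCAAT box, searched as CCAAT on either strand, were looked for in RefSeq promoters (GRCm38.p6, 250 bases before to 50 bases after the start), where 29 of the 35 members matched by symbol. The CHR letters were in 23 of the 29, against 17.9% of all 32851 promoters in the table. The CCAAT letters were also in 23 of the 29, against 37.4% of all promoters. Both motifs were in 20 of the 29, against 6.95% of all promoters. A CHR match shared a base with a CCAAT match in 1 member promoter. The 120 bases before the start are shown for Top2a and Ncapg, which were over 2-fold higher in the liver labelled Adar1-/- Mavs-/-, for Cdk1, the kinase of the list's first role, and for Cdc20, the member that was over 2-fold lower. Capitals mark the matches to either motif.
Top2a, chr11:99024190-99024309, minus strand: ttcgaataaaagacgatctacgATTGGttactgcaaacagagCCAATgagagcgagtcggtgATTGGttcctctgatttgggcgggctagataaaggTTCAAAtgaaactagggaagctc
Ncapg, chr5:45669805-45669924, plus strand: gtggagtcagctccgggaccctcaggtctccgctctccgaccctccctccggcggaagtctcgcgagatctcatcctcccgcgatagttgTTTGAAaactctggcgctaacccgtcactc
Cdk1, chr10:69352913-69353032, minus strand: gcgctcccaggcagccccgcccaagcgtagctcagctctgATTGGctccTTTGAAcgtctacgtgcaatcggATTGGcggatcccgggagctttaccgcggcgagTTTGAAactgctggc
Cdc20, chr4:118437344-118437463, minus strand: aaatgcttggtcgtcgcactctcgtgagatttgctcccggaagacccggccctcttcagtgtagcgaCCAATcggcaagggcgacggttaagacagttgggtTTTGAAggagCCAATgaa
The Top2a window holds 1 CHR match and 3 CCAAT matches, the Ncapg window 1 CHR match and 0 CCAAT matches, the Cdk1 window 2 of each and the Cdc20 window 1 CHR match and 2 CCAAT matches. Of the members with a promoter, 6 had lower values in the liver labelled Adar1-/- Mavs-/-. The CHR letters were in 6 of these 6 and in 17 of the 23 members with higher values. The CCAAT letters were also in 6 of the 6 and in 17 of the 23. Whether these letters go with the direction of a member was not tested.

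FPKM values are fragments per kilobase of transcript, scaled to the fragments mapped in the library. Their deposited bounds cover estimation within a library only. Log2 ratios are those of FPKM plus 1, Adar1-/- Mavs-/- over Adar1-/- as labelled, after the Adar1-/- Mavs-/- values were multiplied by 1 factor per tissue (0.995 in liver and 1.34 in embryos) that set the median of genes of at least 5 FPKM to 0. Counted genes are those that reached 1 FPKM in either library, and 2-fold means a log2 ratio of 1 or more in either direction. Since each group is 1 library, no difference has a replicate check, no test was possible, and each value compares libraries rather than genotypes. In bulk RNA, fewer dividing cells and less RNA per dividing cell cannot be told apart.

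Coverage per FPKM, which follows depth, was 7.13 and 8.58 in the liver libraries labelled Adar1-/- Mavs-/- and Adar1-/-, and 5.62 and 3.48 in the embryo libraries of the same labels. Neither targeted gene was absent from the liver libraries. The Adar level was 4.11 FPKM (bounds 3.86 to 4.36) in the liver labelled Adar1-/- Mavs-/- and 5.56 FPKM (5.28 to 5.84) in the liver labelled Adar1-/-. Mavs was higher in the liver labelled as lacking it, with 9.96 FPKM in the liver labelled Adar1-/- Mavs-/- and 7.26 FPKM in the liver labelled Adar1-/-. Of the 8 annotated Adar isoforms, 3 were above 0 in the liver labelled Adar1-/- Mavs-/- and 0 in the liver labelled Adar1-/-, where every Adar fragment was given to assembled isoforms. Neither level checks a deletion, since the labels do not say which exons were removed. Directions in liver are those of the libraries as labelled. Hepatocyte markers were counted in 12 of 12 cases in liver and summed to 15722 FPKM in the liver labelled Adar1-/- Mavs-/- and 14888 FPKM in the liver labelled Adar1-/-. Skeletal muscle markers stood apart, with 8 of the 8 counted genes over 2-fold lower and sums of 9.76 and 148 FPKM in the same order, as did heart muscle markers, with 4 of 4 lower and sums of 1.72 and 36.5 FPKM.

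In liver, most mitosis genes were higher in the liver labelled Adar1-/- Mavs-/-. All 35 were counted, and 27 had log2 ratios above 0 and 8 below 0, where 42.0% and 58.0% of all 13849 counted genes lay above and below 0. The median was 0.60, against -0.12 over all counted genes. The lowest member levels were 10.8 FPKM in the liver labelled Adar1-/- Mavs-/- and 11.1 FPKM in the liver labelled Adar1-/-, while counted genes include lower ones. Of the 6889 genes of at least 5 FPKM in both livers, whose median the scaling set to 0, 3444 lay above 0 and 3444 below. Among these 6889, 164 were 2-fold higher and 300 lower, and 677 were 1.5-fold higher and 1042 lower. The summed level of the 35 genes was 2446 FPKM in the liver labelled Adar1-/- Mavs-/- and 1551 FPKM in the liver labelled Adar1-/-. Nusap1, Ncapg, Cenpe and Top2a were at least 2-fold higher, 4 of 35 where the background is 6.52%, and Cdc20 was at least 2-fold lower, 1 of 35 where the background is 9.75%. At a size of 1.5-fold, 19 members were higher and 4 lower, against 12.0% and 23.1% of counted genes. The log2 ratios of 12 members exceeded those of 90% of the counted genes. The bounds of a member in the 2 libraries did not overlap for 32 of the 35, the others being Aurka, with overlapping bounds, and Prc1 and Smc2, whose estimates carry a failed status in at least 1 library with bounds starting at 0.

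**Figure D1:**
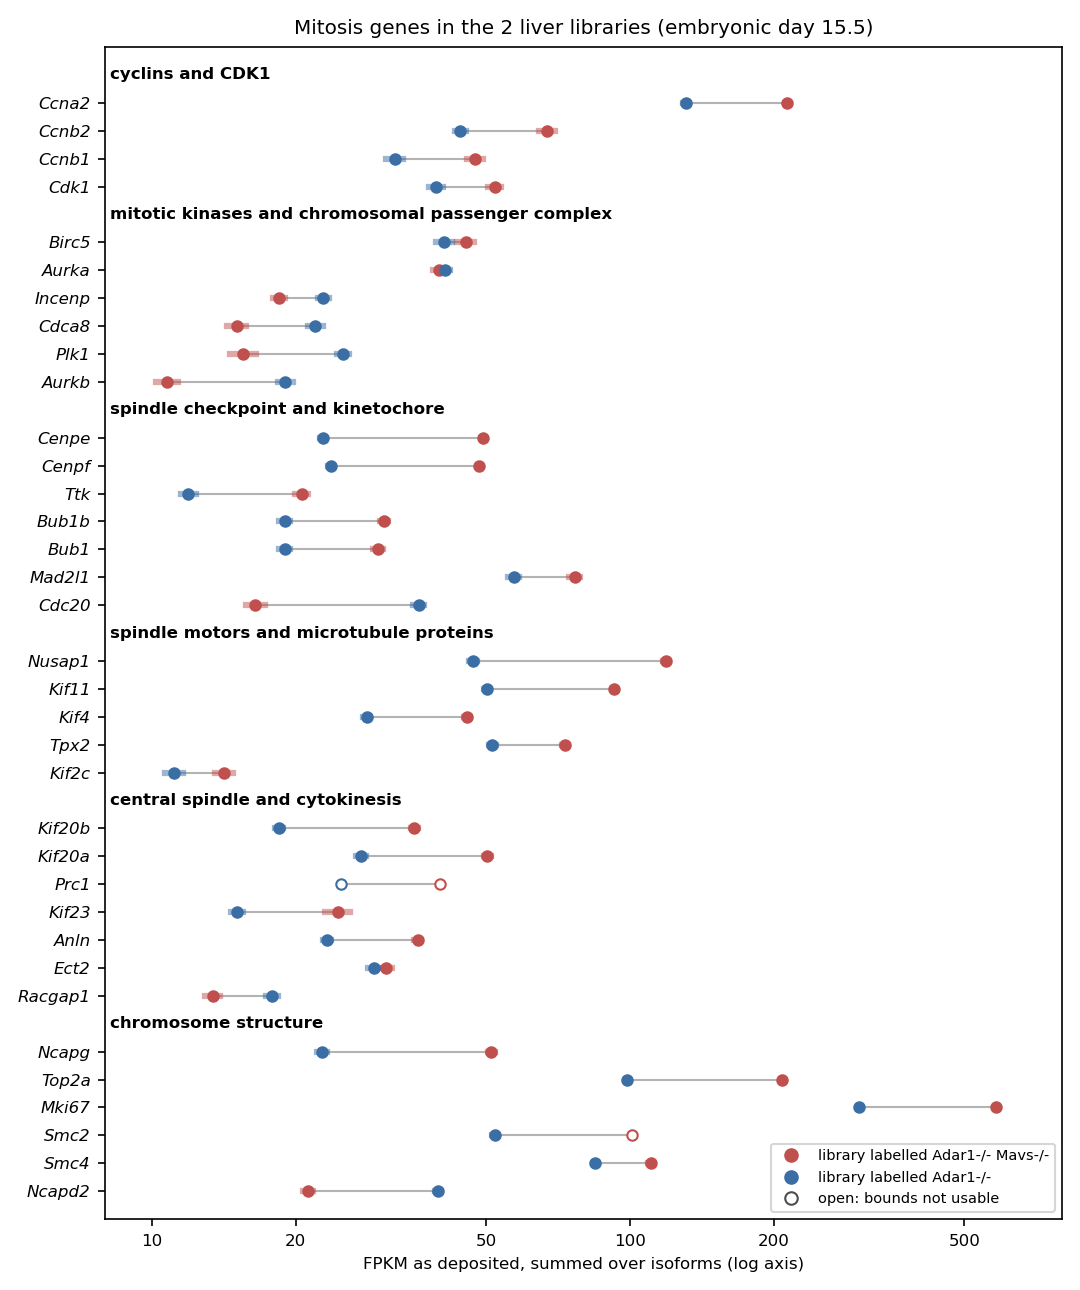
FPKM of the 35 mitosis genes in the liver libraries labelled Adar1-/- Mavs-/- (red) and Adar1-/- (blue), on a log axis, grouped by role and ordered by log2 ratio within a role. Thick bars are the deposited bounds (open symbols where they could not be used). The red point lies to the right of the blue point for most genes. Cdc20, Ncapd2, Racgap1 and all genes of the kinase and passenger complex group but Birc5 are on the other side.

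All 4 members of the cyclin and CDK1 group were higher in the liver labelled Adar1-/- Mavs-/-. Their median log2 ratio was 0.56. Ccna2, cyclin A2 of S phase and G2, had 213 FPKM (bounds 211 to 216) in the liver labelled Adar1-/- Mavs-/- and 131 FPKM (129 to 133) in the liver labelled Adar1-/-, a log2 ratio of 0.69. Cdk1, the kinase that drives entry into mitosis, had 52.1 FPKM (50.4 to 53.8) in the liver labelled Adar1-/- Mavs-/- and 39.3 FPKM (37.96 to 40.6) in the liver labelled Adar1-/-, a log2 ratio of 0.39. These are the highest and the lowest ratio of the group, so its members lay close together. Ccnb1, cyclin B1, had 47.5 and 32.2 FPKM in the same order (log2 ratio 0.54), and its processed copy Ccnb1-ps, with which reads can be shared, had 34.3 and 24.7 FPKM.

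Ccnb2, cyclin B2, summed to 67.1 FPKM in the liver labelled Adar1-/- Mavs-/- and 44.2 FPKM in the liver labelled Adar1-/-, a log2 ratio of 0.59 that depends on how its isoforms are taken. The annotated 1541-base isoform had 22.9 FPKM (bounds 21.9 to 24.0) in the liver labelled Adar1-/- Mavs-/- and 44.2 FPKM (43.0 to 45.3) in the liver labelled Adar1-/-, a log2 ratio of -0.92. An assembled 721-base isoform added 44.2 FPKM in the liver labelled Adar1-/- Mavs-/- and is not listed in the other library. Weighting the isoforms by length, which follows fragments rather than molecules, also put Ccnb2 below 0, so its direction in liver is not settled by these values.

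Mitotic kinases and the chromosomal passenger complex ran the other way: 5 of the 6 genes were lower in the liver labelled Adar1-/- Mavs-/-. The median was -0.41 and no gene was past 2-fold. With GC centring, described below, the group median was -0.08 and 3 of the 6 genes were above 0. Aurkb, the Aurora kinase of the passenger complex, had 10.8 FPKM (bounds 10.2 to 11.3) in the liver labelled Adar1-/- Mavs-/- and 19.0 FPKM (18.3 to 19.7) in the liver labelled Adar1-/-, a log2 ratio of -0.77. Birc5, which encodes survivin of the same complex, was the exception. It had 45.4 FPKM (43.6 to 47.2) in the liver labelled Adar1-/- Mavs-/- and 40.9 FPKM (39.3 to 42.4) in the liver labelled Adar1-/-, a log2 ratio of 0.14 that turned to -0.17 under TPM over named genes. The remaining subunits Cdca8, encoding borealin, and Incenp, the scaffold that activates Aurora B, had log2 ratios of -0.52 and -0.30. Cdca8 and Incenp had 15.1 and 18.5 FPKM in the liver labelled Adar1-/- Mavs-/- and 21.995 and 22.9 FPKM in the liver labelled Adar1-/-. The complex was thus not uniform, with 3 of its 4 subunits lower and Birc5 slightly higher, although Incenp turned above 0 with GC centring, length-weighted isoforms or isoforms of status OK alone. Plk1, the Polo-like kinase of centrosomes and kinetochores, had 15.54 FPKM in the liver labelled Adar1-/- Mavs-/- and 25.1 FPKM in the liver labelled Adar1-/- (log2 ratio -0.66). Aurka, the centrosomal Aurora kinase, had 39.9 and 41.1 FPKM in the same order, with overlapping bounds and a log2 ratio of -0.05 that turned above 0 with an upper quartile factor or GC centring.

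**Figure D2:**
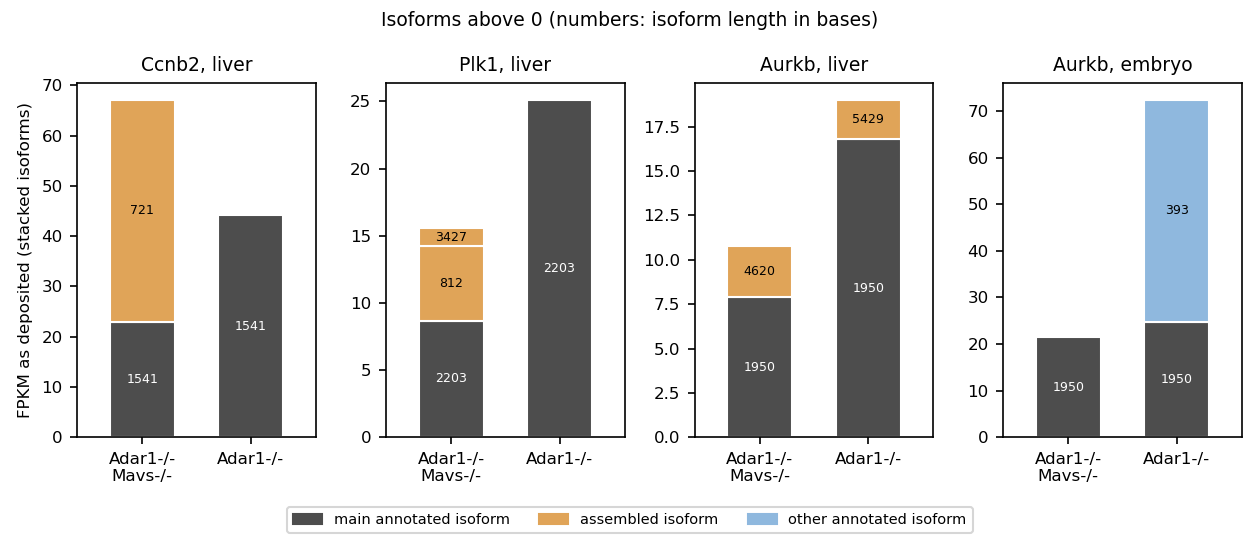
FPKM of every isoform above 0, stacked, for Ccnb2, Plk1 and Aurkb in the liver libraries and Aurkb in the embryo libraries, Adar1-/- Mavs-/- on the left of each panel; numbers in the bars are isoform lengths in bases. The annotated 1541-base Ccnb2 isoform is the smaller part of its bar at 22.9 FPKM in the liver labelled Adar1-/- Mavs-/-, and a 393-base isoform of 47.6 FPKM makes up most of the Aurkb bar of the Adar1-/- embryo library.

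Of the spindle checkpoint and kinetochore genes, 6 of 7 were higher in the liver labelled Adar1-/- Mavs-/-, with a median of 0.66. The group also holds the lowest member of the whole list. Cenpe, the kinetochore kinesin that moves chromosomes to the spindle equator, had 49.3 FPKM (bounds 48.7 to 49.9) in the liver labelled Adar1-/- Mavs-/- and 22.8 FPKM (22.4 to 23.2) in the liver labelled Adar1-/-, a log2 ratio of 1.07. Cenpf, another large kinetochore protein, was just short of 2-fold at 48.3 FPKM in the liver labelled Adar1-/- Mavs-/- and 23.7 FPKM in the liver labelled Adar1-/- (log2 ratio 0.99). Cdc20 encodes the activator of the anaphase-promoting complex, which the checkpoint inhibits. Its level was 16.5 FPKM (15.7 to 17.2) in the liver labelled Adar1-/- Mavs-/- and 36.2 FPKM (35.2 to 37.1) in the liver labelled Adar1-/-, a log2 ratio of -1.10. Every Cdc20 fragment was given to a single annotated isoform in both libraries, so no split between isoforms enters this value. The checkpoint proteins that act on CDC20 lay on the other side of 0: log2 ratios were 0.61 for the kinase gene Bub1, 0.66 for Bub1b (BUBR1), 0.73 for the kinase gene Ttk (MPS1) and 0.41 for Mad2l1 (MAD2). Their levels were 29.7, 30.6, 20.6 and 76.6 FPKM in the liver labelled Adar1-/- Mavs-/- and 19.0, 19.0, 11.9 and 57.1 FPKM in the liver labelled Adar1-/-.

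All 5 genes of spindle motors and microtubule proteins were higher in the liver labelled Adar1-/- Mavs-/-, with a median of 0.67. Nusap1 encodes a microtubule-bundling protein of the spindle and lies at chr2:119444034-119476980 (mm9). It had the highest ratio of the list, with 119 FPKM (bounds 117 to 120.4) in the liver labelled Adar1-/- Mavs-/- and 46.9 FPKM (46.1 to 47.8) in the liver labelled Adar1-/-, a log2 ratio of 1.31. Its main isoform had 92.1 FPKM in the liver labelled Adar1-/- Mavs-/- and 46.9 FPKM in the liver labelled Adar1-/-, a log2 ratio of 0.95. Another annotated isoform thus carries the sum past 2-fold. The lowest ratio of the group was that of Kif2c, the microtubule-depolymerizing kinesin MCAK. This gene had 14.2 FPKM (13.5 to 14.8) in the liver labelled Adar1-/- Mavs-/- and 11.1 FPKM (10.7 to 11.6) in the liver labelled Adar1-/-, a log2 ratio of 0.31. Between them stood Kif11, the kinesin that pushes spindle poles apart, at 0.86, the chromokinesin Kif4 at 0.67 and Tpx2, the activator of Aurora A on the spindle, at 0.49. Levels of these genes were 92.6, 45.7 and 73.2 FPKM in the liver labelled Adar1-/- Mavs-/- and 50.3, 28.2 and 51.5 FPKM in the liver labelled Adar1-/-. Tpx2 was thus higher where Aurka, the kinase gene it acts with, had nearly the same level in both libraries.

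Of the central spindle and cytokinesis genes, 6 of 7 were higher in the liver labelled Adar1-/- Mavs-/-. Their median was 0.66 and none was past 2-fold. Kif20b, a midzone kinesin, had 35.4 FPKM (bounds 34.9 to 36.0) in the liver labelled Adar1-/- Mavs-/- and 18.5 FPKM (18.1 to 18.8) in the liver labelled Adar1-/-, a log2 ratio of 0.90. Racgap1, the GTPase-activating subunit of centralspindlin, had 13.4 FPKM (12.9 to 13.9) in the liver labelled Adar1-/- Mavs-/- and 17.8 FPKM (17.3 to 18.4) in the liver labelled Adar1-/-, a log2 ratio of -0.39. Its partner in centralspindlin, the kinesin gene Kif23, lay on the other side at 24.5 FPKM in the liver labelled Adar1-/- Mavs-/- and 15.1 FPKM in the liver labelled Adar1-/- (log2 ratio 0.66). Remaining log2 ratios in the group were 0.85 for the kinesin gene Kif20a, 0.66 for the microtubule crosslinker Prc1, 0.60 for Anln, the anillin of the contractile ring, and 0.08 for Ect2, the exchange factor that activates RhoA at the cleavage site. Their levels were 50.3, 40.1, 36.0 and 30.96 FPKM in the liver labelled Adar1-/- Mavs-/- and 27.4, 24.9, 23.3 and 29.1 FPKM in the liver labelled Adar1-/-, so Ect2 stood nearly level, and it turned below 0 under both TPM scalings and GC centring.

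Chromosome structure genes had the highest median log2 ratio of the 6 role groups, 0.94, with 5 of 6 higher in the liver labelled Adar1-/- Mavs-/-. Top2a encodes the topoisomerase that untangles sister chromatids and lies at chr11:98854257-98885503 (mm9). Its level was 208 FPKM (bounds 206 to 209) in the liver labelled Adar1-/- Mavs-/- and 98.7 FPKM (97.8 to 99.7) in the liver labelled Adar1-/-, a log2 ratio of 1.06. Mki67, the Ki-67 protein that coats mitotic chromosomes, had the highest level of the list, 582 FPKM in the liver labelled Adar1-/- Mavs-/- and 302 FPKM in the liver labelled Adar1-/-, a log2 ratio of 0.94. The condensin subunits did not move together. Ncapg encodes a regulatory subunit of condensin I and lies at chr5:46061161-46091783 (mm9). This gene had 51.2 FPKM (50.4 to 52.1) in the liver labelled Adar1-/- Mavs-/- and 22.7 FPKM (22.2 to 23.3) in the liver labelled Adar1-/-, a log2 ratio of 1.13. Ncapd2, another regulatory subunit of condensin I, had 21.3 FPKM (20.8 to 21.8) in the liver labelled Adar1-/- Mavs-/- and 39.7 FPKM (39.1 to 40.4) in the liver labelled Adar1-/-, a log2 ratio of -0.88. The SMC subunits shared by both condensins were higher, with log2 ratios of 0.94 for Smc2 and 0.37 for Smc4, and the kleisin subunit Ncaph, which is not on the list, was at -0.14. Smc2 and Smc4 had 101 and 110.4 FPKM in the liver labelled Adar1-/- Mavs-/- and 52.1 and 84.6 FPKM in the liver labelled Adar1-/-.

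Base composition ran along with these directions. The G and C content (GC) of a gene's longest protein-coding transcript ranged from 39.4% to 56.0% over the members, and its correlation with the log2 ratio was r = -0.76 (Spearman's rho -0.67) across the 35 genes. This describes genes that share the same 2 libraries and are not independent replicates. With a split at 50%, chosen after the values were seen, 25 of 25 members at or under 50% GC were above 0, with a median of 0.67, and 8 of 10 members above 50% GC were below 0, with a median of -0.46. The exceptions above 50% were Bub1b and Kif2c. All counted genes showed the same slope in a weaker form: 45.3% of genes at or under 50% GC and 72.4% of genes above 50% GC had log2 ratios below 0. Among the 6889 genes of at least 5 FPKM the correlation was r = -0.39 (rho -0.42). Medians of all counted genes in 10 bins of GC fell steadily, 0.28 in the lowest and -0.50 in the highest. Transcript length went the other way among the members (r = 0.48, rho 0.56), with hardly any relation over all counted genes (r = -0.08, rho -0.14). GC and length are those of the longest transcript, which for some members is not the isoform that holds the FPKM. Cdk1 entered with 4375 bases and Mad2l1 with 7557, while their main isoforms in liver have 1253 and 1370 bases. The part of base composition in the members' ratios was not tested.

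After each log2 ratio was centred on the median of all counted genes of its GC bin, the members' median was 0.59, with 28 above 0 and 7 below 0. Nusap1 alone stayed past 2-fold, at 1.17, and Cdc20 was at -0.65. Of the 25 members at or under 50% GC, 24 were above the median of their bin, the exception being Ect2, and of the 10 above 50%, 4 were above and 6 below. The correlation with GC across the members was r = -0.53 (rho -0.41) on the centred values. Stretches of coding sequence from the middle of the condensin genes show the difference in composition, with G and C in capitals, from GENCODE M21 transcripts (GRCm38, read along the messenger RNA).
Ncapg, coding bases 1477 to 1536: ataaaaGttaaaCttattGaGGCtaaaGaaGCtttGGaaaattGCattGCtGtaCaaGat
Ncapd2, coding bases 2059 to 2118: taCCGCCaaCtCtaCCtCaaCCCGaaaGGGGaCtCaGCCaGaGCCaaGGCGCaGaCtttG
The Ncapg stretch holds 18 G or C bases of 60 and comes from a coding region of 40.3% GC, and the Ncapd2 stretch holds 35 of 60 and comes from a coding region of 53.9% GC.

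**Figure D3:**
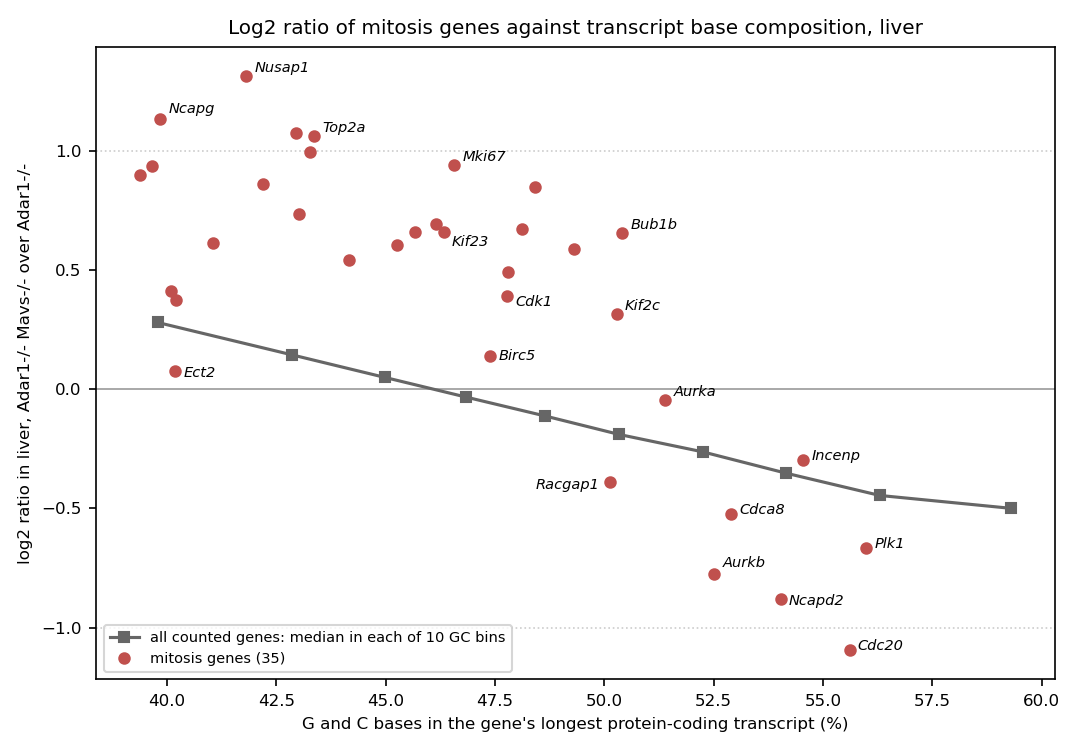
Log2 ratio in liver (Adar1-/- Mavs-/- over Adar1-/-) of the 35 mitosis genes, red, against the GC percentage of the longest protein-coding transcript, with the median of all counted genes in each of 10 GC bins, grey; dotted lines mark 2-fold. The grey medians run down from 0.28 to -0.50 across the bins, most red points up to 50% GC lie above them, and Cdc20, Ncapd2, Aurkb and Plk1 lie below them at high GC.

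Genes of mitosis that are not on the list had a median closer to 0. Of 131 related genes, 126 were counted, with 7 past 2-fold upward, where the background is 6.52%, and 5 downward, where it is 9.75%. The upward count thus lay near the background and the downward count under it, and the median log2 ratio was 0.16 with and without GC centring. Medians were 0.30 for condensin and cohesin genes, 0.23 for kinetochore and centromere genes, 0.05 for spindle, motor and centrosome genes, -0.08 for kinases, phosphatases and G2/M regulators and -0.18 for checkpoint, APC/C and separase genes. Of these, 4 genes with values in both libraries were past 2-fold upward. Esco2, which acetylates cohesin, had 51.0 FPKM in the liver labelled Adar1-/- Mavs-/- and 18.2 FPKM in the liver labelled Adar1-/- (log2 ratio 1.43). Spc25, a subunit of the NDC80 complex, had 47.6 and 19.7 FPKM in the same order (1.22), the CDK-binding protein gene Cks1b 41.2 and 17.3 FPKM (1.20), and Hmmr, a spindle assembly factor, 83.5 and 37.5 FPKM (1.13). Anapc15, Cenpl and Haus8 had 37.1, 7.21 and 10.7 FPKM in the liver labelled Adar1-/- Mavs-/- and were listed at 0 in the liver labelled Adar1-/-.

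Downward, Sapcd2 was at -1.35, Pmf1, a subunit of the MIS12 complex, at -1.06 and Ckap4 at -1.02 in liver. Ckap4 was placed by hand among the spindle, motor and centrosome genes, and its part in mitosis was not checked. Sapcd2, Pmf1 and Ckap4 had 1.90, 8.42 and 3.76 FPKM in the liver labelled Adar1-/- Mavs-/- and 6.35, 18.5 and 8.63 FPKM in the liver labelled Adar1-/-. Their transcripts hold 56.9%, 57.6% and 56.0% GC. Cenpp and Anapc10 were listed at 0 in the liver labelled Adar1-/- Mavs-/- and had 11.6 and 4.77 FPKM in the liver labelled Adar1-/-. Psrc1 and Haus4, at -0.93 and -0.92, were the next lowest. With annotated isoforms alone Haus4 turned to 0.11, Sapcd2 was at -2.62 and Pmf1 at -1.79. Across the 126 related genes GC and log2 ratio had r = -0.25 (rho -0.51).

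Lists for other parts of the cell cycle lay closer than the members to the all-gene median of -0.12. The replication list had a median of 0.13 over 41 counted genes. Of these, 2 were past 2-fold upward, where the background is 6.52%, and 2 downward, where it is 9.75%. Neither count exceeded its background. Pola1, the catalytic subunit of DNA polymerase alpha, had 43.8 FPKM in the liver labelled Adar1-/- Mavs-/- and 19.9 FPKM in the liver labelled Adar1-/- (log2 ratio 1.09), and Orc4, of the origin recognition complex, was at 1.79 with 13.3 and 3.11 FPKM in the same order. DNA ligase I, encoded by Lig1, was the lowest at -3.12, with 13.7 FPKM (bounds 13.1 to 14.4) in the liver labelled Adar1-/- Mavs-/- and 127 FPKM (124 to 129) in the liver labelled Adar1-/-. Orc3 was listed at 0 in the liver labelled Adar1-/- Mavs-/-. The list of G1 and quiescence genes had a median of -0.18 over 17 counted genes. Cdkn1a, the CDK inhibitor p21, was the only member of that list past 2-fold, 1 of 17 where the background is 9.75%. It had 0.32 FPKM in the liver labelled Adar1-/- Mavs-/- and 2.18 FPKM in the liver labelled Adar1-/- (log2 ratio -1.27). With annotated isoforms alone Cdkn1a was at -0.59 and no longer past 2-fold, while Cdk6 at -2.51 and Cdkn1c at -1.51 were past it. Regulators of these promoters (DREAM, MuvB and E2F genes) had a median of 0.03 over 23 genes. The lowest of them was Mybl2, B-MYB of the activating MuvB complex, at -1.57, with 7.88 FPKM in the liver labelled Adar1-/- Mavs-/- and 25.3 FPKM in the liver labelled Adar1-/-. Foxm1, the forkhead activator of G2/M genes, was at -0.64. Lin54, a DNA-binding MuvB subunit, was at -1.24, with 13.7 and 33.7 FPKM in the same order and a bound in the liver labelled Adar1-/- Mavs-/- too wide to use. The repressor E2f4 was at -0.91, while Tfdp2, a partner of E2F proteins, was at 0.92 and the retinoblastoma gene Rb1 at 0.87. Regulator genes thus lay on both sides of 0, with 13 above and 10 below. Outside the regulator list, the cyclin D1 gene Ccnd1 was at -0.90 and Rrm1, of ribonucleotide reductase, at 0.78. With annotated isoforms alone Orc4 was at 3.83, Mybl2 at -4.55 and Lin54 at -2.002.

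**Figure D4:**
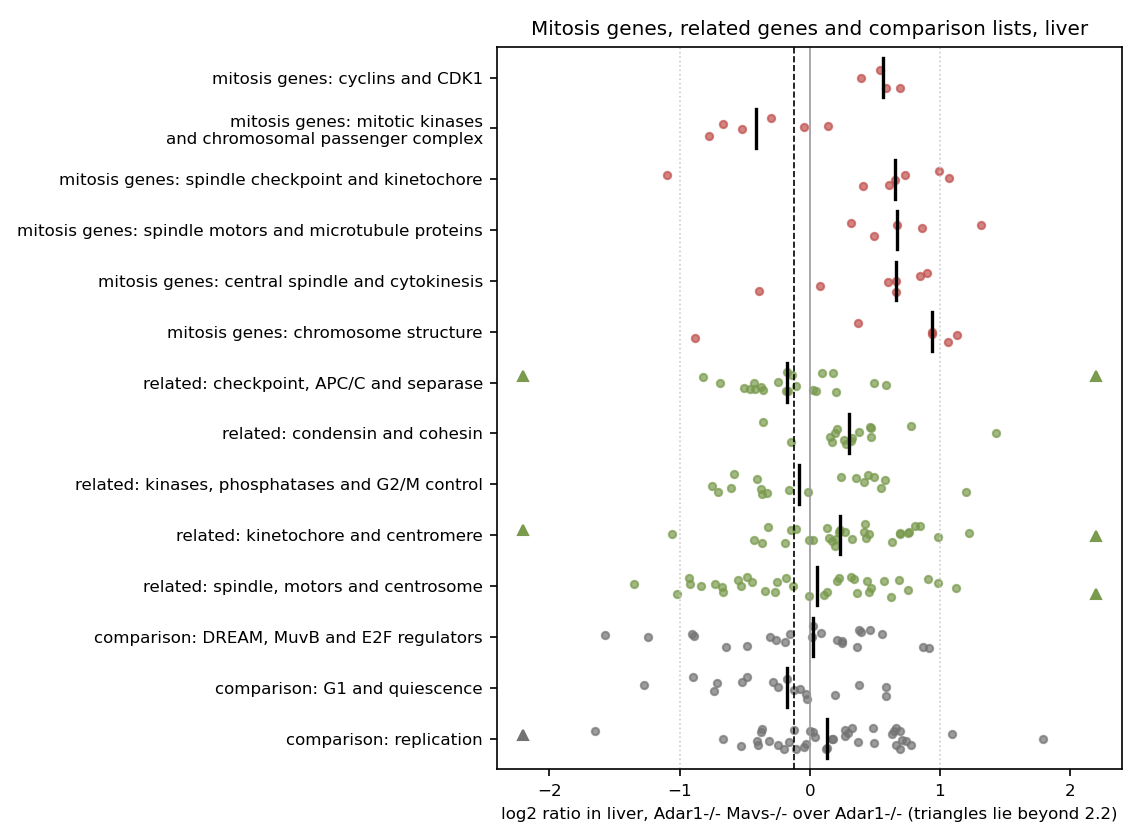
Log2 ratios in liver (Adar1-/- Mavs-/- over Adar1-/-) of the mitosis genes by role (red), related mitosis genes (green) and comparison lists (grey); each point is a gene, black bars are list medians, the dashed line is the median of all counted genes and triangles are genes beyond the axis. The role medians lie at 0.56 to 0.94 apart from the kinase and passenger complex group at -0.41, and the medians of the related and comparison lists lie between -0.18 and 0.30.

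Erythroid, macrophage and megakaryocyte markers lay mostly above 0 in liver, as the members did. Granulocyte, endothelial, and stellate and fibroblast markers lay mostly below 0, where 58.0% of all counted genes lay. Of 15 erythroid markers listed, 10 had values in both liver libraries, and all 10 were counted. Of these 10, 8 were above 0. The 10 summed to 3048 FPKM in the liver labelled Adar1-/- Mavs-/- and 2295 FPKM in the liver labelled Adar1-/-. The other listed erythroid markers are not in these sums, which thus do not give the whole erythroid RNA. The median log2 ratio of the erythroid markers was 0.26, with a range from -0.97 to 1.18. Of these markers, 3 were at least 2-fold higher, where the background is 6.52%. Among them were Tfrc, the transferrin receptor, with a log2 ratio of 1.02 and Epb42, a red cell membrane protein, at 1.18. Macrophage markers were above 0 in 10 of 11 cases and summed to 121 FPKM in the liver labelled Adar1-/- Mavs-/- and 83.3 FPKM in the liver labelled Adar1-/-. Megakaryocyte markers were above 0 in 6 of 8 cases, with 142 and 76.3 FPKM in the same order. Of the macrophage markers, Cd68 was listed at 0 in the liver labelled Adar1-/-. Stem and progenitor markers were above 0 in 2 of 5 cases, near the 42.0% of all counted genes, with a median log2 ratio of -0.22. Granulocyte markers were above 0 in 2 of 8 cases, with a median of -0.43, and hepatocyte markers in 6 of 12, with a median of 0.01. Endothelial markers were above 0 in 0 of 7 cases, with a median of -0.17. Stellate and fibroblast markers were above 0 in 2 of 7 cases, with a median of -0.55. The part of these cells, and of the muscle RNA described above, in the members' values was not tested.

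In whole embryos, 3 of the 4 mitosis genes held by both libraries had log2 ratios below 0, that is, were lower in the Adar1-/- Mavs-/- library. Of all 1915 counted genes, 58.6% were below 0. The members' median was -0.45, against -0.12 over those genes. Cdk1 had 45.4 FPKM (bounds 43.6 to 47.1) in the Adar1-/- Mavs-/- library and 81.5 FPKM (78.6 to 84.4) in the Adar1-/- library, a log2 ratio of -0.42. Top2a had 48.1 FPKM (47.3 to 48.9) in the Adar1-/- Mavs-/- library and 89.6 FPKM (88.3 to 91.0) in the Adar1-/- library, a log2 ratio of -0.47. These genes were thus on the other side of 0 from liver, where they were at 0.39 and 1.06. Birc5 had 34.98 FPKM (32.8 to 37.2) in the Adar1-/- Mavs-/- library and 33.2 FPKM (31.1 to 35.4) in the Adar1-/- library, overlapping as deposited, and a log2 ratio of 0.48 after scaling that turned to -0.43 under TPM over named genes.

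Aurkb was past 2-fold in embryos (1 of 4, where 9.77% of counted genes were 2-fold lower and 6.42% 2-fold higher, and 20.3% were 1.5-fold lower), with 21.4 FPKM (bounds 20.5 to 22.3) in the Adar1-/- Mavs-/- library and 72.4 FPKM (66.5 to 78.3) in the Adar1-/- library, a log2 ratio of -1.31. Its isoforms carry this difference. The full-length 1950-base isoform had 21.4 FPKM in the Adar1-/- Mavs-/- library and 24.7 FPKM in the Adar1-/- library, a log2 ratio of 0.20 after scaling. A 393-base annotated isoform stood at 0 in the Adar1-/- Mavs-/- library and had 47.6 FPKM (41.9 to 53.4) in the Adar1-/- library. With isoforms of at least 500 bases alone, an alternative chosen after seeing the data, Aurkb was at 0.23 and the median of the 4 genes at -0.09.

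**Figure D5:**
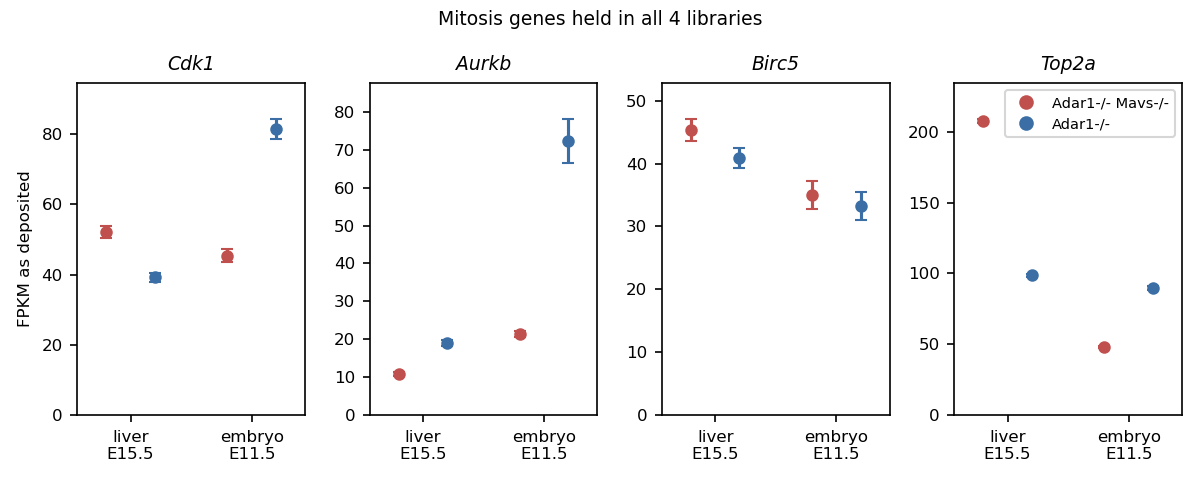
FPKM as deposited, summed over isoforms, of the mitosis genes with values in all 4 libraries, with the deposited bounds as error bars; Adar1-/- Mavs-/- (red) stands left of Adar1-/- (blue) in each tissue. Cdk1 and Top2a are higher in the Adar1-/- Mavs-/- library in liver and lower in embryos, Aurkb is lower in both tissues and the Birc5 bounds overlap in embryos as deposited.

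Of the related mitosis genes, 18 were counted in embryos, with a median log2 ratio of 0.01, 9 above 0 and 9 below. Of all 1915 counted genes in embryos, 41.4% lay above 0 and 58.6% below. The 1 gene past 2-fold was Ska2, a subunit of the kinetochore SKA complex, with 18.3 FPKM in the Adar1-/- Mavs-/- library and 10.3 FPKM in the Adar1-/- library (log2 ratio 1.17). This count of 1 in 18 lay near the background, 6.42% of counted genes 2-fold higher in embryos. With annotated isoforms alone Ska2 was at 0.44, short of 2-fold. The lowest was Cenpw, a centromere protein, at -0.95 with 3.51 FPKM in the Adar1-/- Mavs-/- library and 9.97 FPKM in the Adar1-/- library, and it turned to 0.39 with annotated isoforms alone. Fbxo5, the inhibitor of the anaphase-promoting complex also called EMI1, was at 0.97, and Zwint, a kinetochore protein, at -0.51 with 73.2 FPKM in the Adar1-/- Mavs-/- library and 140.2 FPKM in the Adar1-/- library. Pttg1, which encodes securin, was at -0.44. Of 4 replication genes, all were above 0, led by Pold2, a subunit of DNA polymerase delta, at 1.77 with 418 FPKM in the Adar1-/- Mavs-/- library and 163 FPKM in the Adar1-/- library. Pold2 was the only 1 of these 4 past 2-fold, where the background is 6.42%. Assembled isoforms made up 70.7% of the Pold2 level in the Adar1-/- Mavs-/- library, and with annotated isoforms alone Pold2 was at 0.32, short of 2-fold, and Cdc6 turned to -0.12. Of 4 G1 and quiescence genes, the antiproliferative Btg1 was past 2-fold at -2.31, with 5.96 FPKM in the Adar1-/- Mavs-/- library and 43.6 FPKM in the Adar1-/- library, where 91.3% of its FPKM came from assembled isoforms. Btg1 was the only 1 of these 4 past 2-fold, where the downward background is 9.77%. The annotated Btg1 isoform alone was at 0.65, in the other direction. The slope of log2 ratio on GC seen in liver was not repeated in embryos, where all counted genes had medians of -0.31 in the lowest of 10 GC bins and -0.09 in the highest. Tissue, age and strain label differ together between the liver and the embryo libraries, so their parts cannot be told apart.

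Over all members, the main isoform alone gave 26 higher and 9 lower genes in liver, a median log2 ratio of 0.57, and 3 genes at least 2-fold lower, Cdc20 at -1.10, Aurkb at -1.01 and Plk1 at -1.44. Isoforms assembled from the reads were above 0 for 12 members in the liver labelled Adar1-/- Mavs-/- and for 11 in the liver labelled Adar1-/-. In the library labelled Adar1-/- Mavs-/-, Plk1 fragments were divided among 3 isoforms, 8.67 FPKM for the annotated 2203-base isoform and 5.56 and 1.31 FPKM for assembled ones, while in the liver labelled Adar1-/- the annotated isoform held all 25.1 FPKM. Protein-coding genes overlap several members on the opposite strand, among them Oip5 at Nusap1, Elovl1 at Cdc20, Exosc9 at Ccna2, Cdc23 at Kif20a and Lcorl at Ncapg. The sources used here do not say whether strand was kept, so reads of such pairs may not be separated.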

How the data were processed

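Total RNA of 4 mouse libraries was analysed, 1 per group, with groups taken from the genotype and tissue labels. The submitters' processing notes name mm9 as the build and TopHat 1.4.0 and Cufflinks 2.2.1 as tools, with neither roles nor options given in the sources used here. The deposited values are FPKM per isoform with bounds and a status, per the file headers, and each deposited coverage value was a fixed multiple of the FPKM within a library. The sources used here give no read totals.

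Symbols came from GENCODE M21 for 86.7% of the annotated isoform identifiers in each liver library and 88.7% and 90.2% in the embryo libraries labelled Adar1-/- Mavs-/- and Adar1-/-. An assembled isoform, or an identifier not in M21, was given the symbol of its Cufflinks gene that it overlapped best. Isoforms left with no symbol made up 39.9% and 42.0% of the length-weighted FPKM in the liver libraries labelled Adar1-/- Mavs-/- and Adar1-/-, and 63.9% and 42.2% in the embryo libraries. FPKM were summed per symbol, and the distances of the bounds were combined as the root of summed squares. All positions of genes are those of the deposited mm9 values; GC and sequences came from GRCm38 and no coordinates were joined across builds.

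Scaling used 6889 genes of at least 5 FPKM in liver and 973 in embryos, a pseudocount of 1 and a minimum of 1 FPKM in either library. Log2 ratios on FPKM plus 1 understate differences of low genes. An exact 0 can be a failed estimate and is given as listed at 0. No p-value was computed. Scaling and log2 ratios from summed FPKM were tested on simulated data with known fold changes larger than those of the members. That test did not cover symbol mapping, isoform sums or GC centring. The work used Python 3.11.15 with pandas 2.3.3 and numpy 2.4.6.

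The members, the gene lists and the alternatives were chosen with earlier results of these data known. Full values are given for the highest and lowest ratio of each role, every member at least 2-fold apart and the embryo members. Of the related and comparison lists, genes at least 2-fold apart and the 5 highest and 5 lowest in liver with 1 FPKM in both libraries are named, and in embryos examples from those with values there; Foxm1, Ncaph and the genes given for annotated isoforms alone (Cdk6, Cdkn1c) were named after their values were seen. Some genes that this rule picks are not reported here.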

Additional observations from a re-analysis of the deposited data

Results flagged for a closer look

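Top2a and Cdk1 had log2 ratios of opposite sign in the tissues under the same contrast, Adar1-/- Mavs-/- over Adar1-/-. Top2a was at 1.06 in liver and -0.47 in embryos, a gap of 1.53, and Cdk1 was at 0.39 in liver and -0.42 in embryos, a gap of 0.81. With 1 library per group the difference between the tissues was not tested. The direction of both genes in liver and of both genes in embryos was the same under every alternative scaling, filter and isoform choice that gave a value. Only 4 members have values in both tissues, and tissue, age and strain label differ together, so their parts cannot be told apart.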

How the results depend on the processing

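No paired analysis was possible because each group has 1 library and the labels carry no shared replicate numbers. TPM over named genes moved the median of all genes of at least 5 FPKM by -0.32 in liver and -0.94 in embryos, and FPKM as deposited moved it by -0.42 in embryos. The members' liver median lay between 0.29 and 0.65 over 12 alternatives, and 25 of 35 members kept their direction in each of them. Depth beyond coverage per FPKM is unknown, which limits statements on genes of low FPKM. Isoforms weighted by length and isoforms of at least 500 bases were chosen after seeing the data.

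Under TPM over named genes, 0 members were 2-fold higher and 3 lower in liver, with a median of 0.29, or 0.61 relative to the shift of all genes, and the embryo median was -1.36; the related genes had 4 higher, 11 lower and a median of -0.14 in liver, and -0.84 in embryos. TPM without the 50 most abundant genes gave 2 members higher, a median of 0.52 and a related median of 0.075 in liver. GC centring left 1 member higher and 0 lower, an embryo median of -0.31 and 2 related genes lower. At 1.5-fold, 19 members were higher and 4 lower, and 22 related genes were higher and 16 lower, against 12.0% and 23.1% of all counted genes. Shares of all genes were not computed under the other settings, so counts given for those settings have no background beside them. Annotated isoforms alone gave 3 members lower and a median of 0.51, 12 related genes higher and 15 lower in liver, and a related median of -0.16 in embryos. Isoforms of status OK alone gave 6 members lower and a median of 0.48, and 22 related genes higher and 21 lower with a median of 0.074; since main isoforms of other status drop out by construction, Nusap1 turned to -5.58. Weighting isoforms by length gave a members' median of 0.46 in liver and -0.31 in embryos and 3 related genes lower. FPKM as deposited gave embryo medians of -0.86 for members and -0.38 for related genes. With isoforms of at least 500 bases, the embryo median was -0.085 and embryo Aurkb turned to 0.23.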
